A study of Mus musculus with 8 samples.

Results

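The AP-1 and immediate-early factors described here are 10 genes, Fos, Fosb, Fosl2, Jun, Junb, Jund, Atf3, Egr1, Ier2 and Ier3. They were chosen by gene symbol from a table of 16505 genes made from epididymal fat, the white adipose depot that lies along the epididymis in male mice. All 10 were in the table. RNA was taken from 8 C57BL/6 mice that had all eaten a high fat diet over 12 weeks, of which 4 were wild type (WT) and 4 carried a double knockout of miR-181 (the knockout, DKO in the plots). The labels name neither the deleted loci nor the age of the mice, and no row of the table measures the deleted microRNAs, so the genotype could not be checked here. The comparison asks how expression in fat under this diet differs with the deletion. Values are log2 CPM, the log2 of read counts scaled to the size of the library (counts per 1e6 reads). A change is the knockout mean minus the WT mean on that scale, with its SE from limma and n = 4 mice a group, and a gene was called at a Benjamini-Hochberg adjusted p under 0.05. Litter and housing are not in the labels, so the spread behind each p-value is that between these 8 libraries, whatever its source.

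Immediate-early genes are transcribed within minutes of a growth factor, cytokine or stress signal from factors already present in the cell, and their messages are short lived. AP-1 is a dimer of leucine-zipper proteins, in which a FOS protein pairs with a JUN protein, or JUN proteins pair with each other or with ATF proteins. FOS, FOSB, JUN and JUNB are inducible members, FOSL2 and JUND are present in many resting cells, and ATF3 is a stress-induced partner that often represses. EGR1 is a zinc-finger factor induced by the same kinases, and IER2 and IER3 are immediate-early proteins outside the leucine-zipper family. In fat, AP-1 is known both in the activation of tissue macrophages and in the control of adipocyte differentiation.

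The mature 5p strands of the miR-181 family are shown first, because the label names miR-181 as deleted. Which of the 4 strands the double knockout removes is not given. Sequences are from RefSeq (GRCm38.p6), 5′ to 3′, with the seed, bases 2 to 8, in capitals. The 4 strands share 1 seed, ACAUUCA.
mmu-miR-181a-5p: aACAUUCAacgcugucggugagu
mmu-miR-181b-5p: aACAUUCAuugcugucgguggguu
mmu-miR-181c-5p: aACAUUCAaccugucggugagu
mmu-miR-181d-5p: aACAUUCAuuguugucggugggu

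Messages with the reverse complement of this seed, TGAATGT, in the 3′ UTR are candidates for pairing. In the longest annotated 3′ UTR of each member in GENCODE M21, 1 of the 10 members held it. The match was in Fos, starting at base 600 of a 3′ UTR of 815 bases, and it is not followed by an A. Among the 12851 tested genes with an annotated 3′ UTR, 2376 held the heptamer (18.5%). The site is shown with the match in capitals.
Fos site: ttgtcgaggtggtcTGAATGTtctgacatt

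Promoters were looked at for the letters of known control elements, since some of the members were lower in the knockout. RefSeq promoters (GRCm38.p6, 250 bases before to 50 bases after the start of transcription) were used for 8 of the 10 members, all but Egr1 and Ier2. Shown are Fos, Junb and Atf3, which were lower in the knockout, and Jun, which was not called. Capitals mark TGACG, the core of the cyclic AMP response element bound by CREB and ATF proteins, on either strand, and TATAAA, the letters of a TATA box.
Fos promoter, chr12:85473640-85473939, + strand: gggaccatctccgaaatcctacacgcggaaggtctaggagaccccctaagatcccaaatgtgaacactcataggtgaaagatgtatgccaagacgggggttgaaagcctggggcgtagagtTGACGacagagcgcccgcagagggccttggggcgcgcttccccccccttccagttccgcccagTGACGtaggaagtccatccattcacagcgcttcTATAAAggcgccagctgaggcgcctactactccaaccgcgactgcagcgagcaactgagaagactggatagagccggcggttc
Junb promoter, chr8:84978699-84978998, - strand: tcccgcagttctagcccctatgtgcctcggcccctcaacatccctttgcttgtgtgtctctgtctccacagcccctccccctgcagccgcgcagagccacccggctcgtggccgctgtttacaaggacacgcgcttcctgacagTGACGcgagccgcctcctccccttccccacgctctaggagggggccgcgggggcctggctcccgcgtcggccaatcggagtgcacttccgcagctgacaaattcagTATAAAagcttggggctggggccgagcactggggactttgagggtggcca
Atf3 promoter, chr1:191183284-191183583, - strand: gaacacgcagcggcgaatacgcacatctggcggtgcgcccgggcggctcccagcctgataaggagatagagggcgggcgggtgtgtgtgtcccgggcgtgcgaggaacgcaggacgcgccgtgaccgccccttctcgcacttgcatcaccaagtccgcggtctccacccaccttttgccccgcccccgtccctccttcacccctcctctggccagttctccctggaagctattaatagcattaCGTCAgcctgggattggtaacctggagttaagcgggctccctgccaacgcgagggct
Jun promoter, chr4:95052173-95052472, - strand: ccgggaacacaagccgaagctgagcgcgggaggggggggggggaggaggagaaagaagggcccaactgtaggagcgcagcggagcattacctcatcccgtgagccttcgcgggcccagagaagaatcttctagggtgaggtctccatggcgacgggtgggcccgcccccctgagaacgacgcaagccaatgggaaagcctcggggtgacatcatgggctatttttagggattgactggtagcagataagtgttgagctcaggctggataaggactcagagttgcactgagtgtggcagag

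The TGACG core stood 129 and 66 bases before the start of Fos, 106 before that of Junb, 7 before that of Atf3 and 60 before that of Fosb. It was not in the windows of Fosl2, Jun, Jund and Ier3. Of 32851 promoters of the same length, 20.8% held it. The full element TGACGTCA (1.79% of promoters), the AP-1 site TGACTCA (5.20%) and the CArG box bound by serum response factor (1.63%) were in none of the 8 windows. TATAAA, which 13.6% of promoters held, was in the window of Fos, 33 bases before the start. It was also in that of Junb, where it begins at the annotated start itself. Starts used in this tissue were not measured, so whether either acts as a TATA box was not tested. Motifs were searched as exact letters on both strands and may overlap. Variants, such as TGACATCA in the Jun window, were not counted, and elements outside the windows were not searched. A match describes the letters and is no evidence of binding.

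The libraries held between 3736881 reads (knockout replicate 1) and 76838584 reads (knockout replicate 2). Ribosomal RNA took over 1% of reads in WT replicates 1, 3 and 4 and knockout replicate 1, and under 1% in the other 4, and changes computed within each of these classes follow each called gene, the class with more of it first. In each class 1 group is a single library, so they carry no error. Epididymis markers reached 1.15% of the reads of WT replicate 2, 1.94% of those of knockout replicate 2 and 0.972% of those of knockout replicate 4, and at most 0.00402% elsewhere. The labelled tissue was checked by its adipocyte markers, which were abundant in all 8 libraries (Fabp4, the fatty acid binding protein of fat cells, 12.08 to 13.70 log2 CPM). All 8 macrophage markers were lower in the knockout, with a median change of −2.45 and a summed level of 7299 to 8514 CPM in WT and 1447 to 2052 CPM in knockout. Of 8 adipocyte markers 7 were higher, with a median of 1.61 and sums of 7846 to 14080 CPM in WT and 18197 to 25098 CPM in knockout. Mast cell markers were lower in 4 of 5 (median −2.88, sums of 172 to 409 CPM in WT and 37.0 to 76.7 CPM in knockout), and fibroblast and progenitor markers in 2 of 6 (median −0.38). Endothelial markers were higher in 6 of 6 (median 0.95, sums of 335 to 459 CPM and 668 to 839 CPM), mesothelial markers in 4 of 5 (median 1.03) and smooth muscle markers in 2 of 5 (median 1.77). Over all tested genes, 16.1% were called lower and 22.7% higher. In such bulk tissue, fewer cells of a type and less RNA per cell cannot be told apart. The part of these shifts in the results below was not tested.

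Atf3, Fos, Junb and Egr1 were lower in the knockout, by 10.7-fold, 5.26-fold, 2.30-fold and 1.54-fold, and Fosb, Fosl2, Jun, Jund, Ier2 and Ier3 were not called. All 10 members passed the filter on low values. Of them 4 were called lower and 0 higher, where 16.1% of the 13797 tested genes were called lower, 22.7% higher and 38.8% in either direction. Without the 3 libraries with over 0.5% epididymis reads, 4 were again called lower. The groups did not overlap in 4 members, lower in the knockout for Fos, Junb and Atf3 and higher for Fosb. Over all tested genes, the knockout lay wholly below WT in 16.6% and wholly above it in 20.8%. The median change was −0.096 over the members and 0.18 over all tested genes. Centring each library on its median moved the changes to −3.56 for Atf3, −2.54 for Fos, −1.34 for Junb and −0.76 for Egr1.

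**Figure D1:**
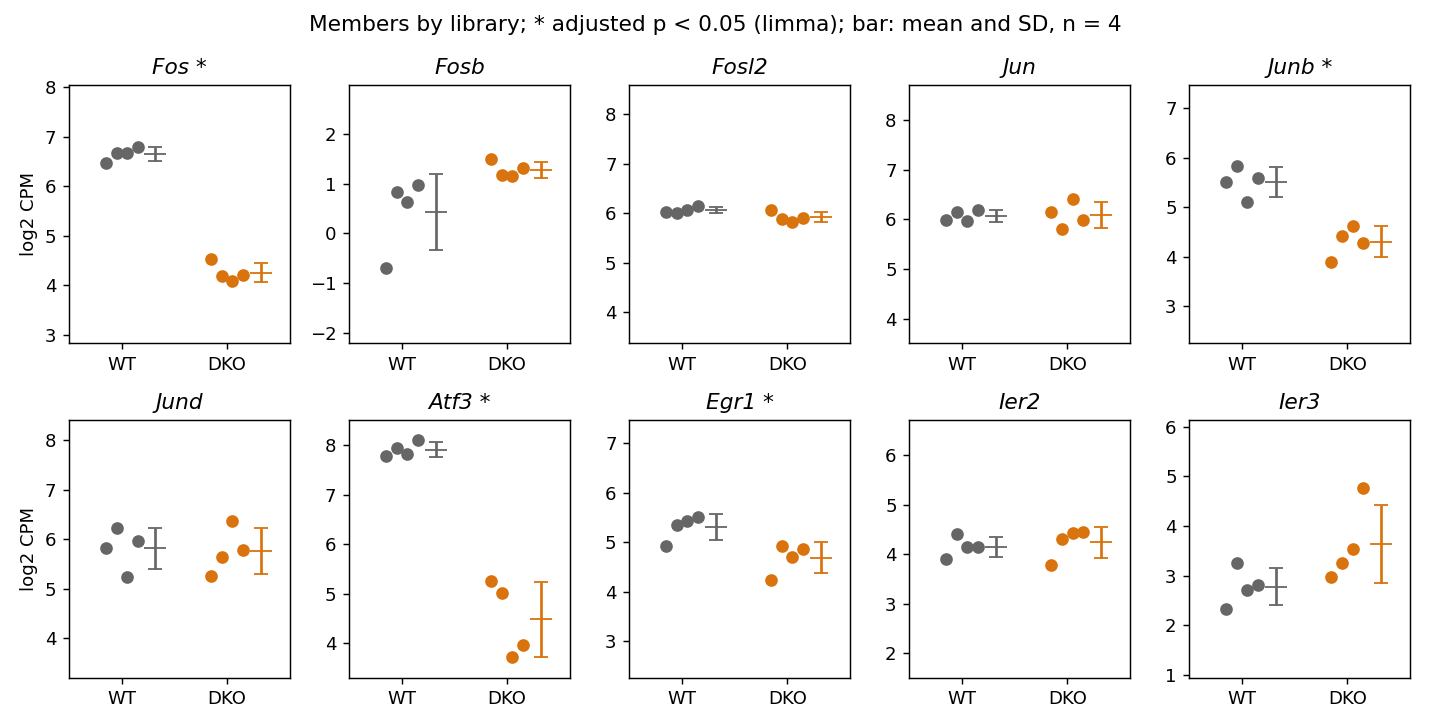
Level of each gene (log2 CPM, vertical axis, each panel spanning the same range of log2 units) in 4 WT (grey) and 4 knockout (DKO, orange) libraries, with points in replicate order from 1 to 4 and bars giving the mean and SD. Fos, Junb and Atf3 separate downward and Fosb upward, while Egr1 touches at the edge.

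**Figure D2:**
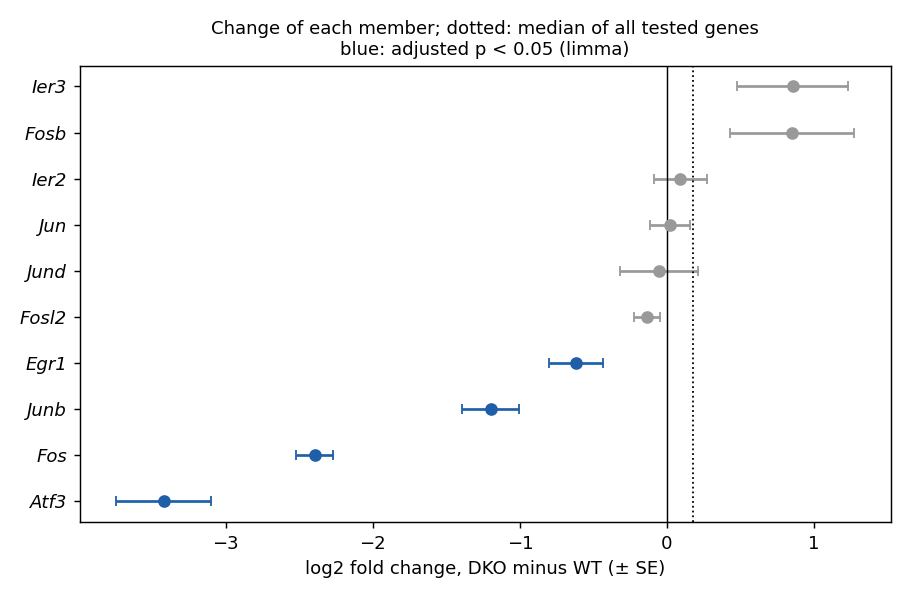
Change of each gene (log2 fold change of knockout against WT on the horizontal axis, with the SE from limma), with called genes in blue, the others in grey and the median of all tested genes (0.18) dotted. The changes run from −3.42 for Atf3 to 0.85 for Ier3 and Fosb.

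Among the FOS genes, Fos itself, the founding member of the family, stood at 6.46, 6.66, 6.67 and 6.80 log2 CPM in WT replicates 1 to 4. In knockout replicates 1 to 4 it stood at 4.53, 4.19, 4.09 and 4.20. The highest knockout value lay well below the lowest WT value, and both groups were tight. The change was −2.39 ± 0.13 (limma adjusted p = 1.17e-05), −2.11 and −2.50 within the ribosomal RNA classes, and it passed in all 22 alternatives with a test. Fosb, a paralog of Fos, was rare. It rested on 2, 27, 10 and 11 reads in the WT libraries and 10, 173, 80 and 50 in the knockout ones. Its levels were −0.71, 0.84, 0.63 and 0.97 in WT and 1.49, 1.18, 1.15 and 1.31 in knockout, so that the groups did not overlap. The difference of 0.85 ± 0.42 was not called (limma adjusted p = 0.136), and it was 0.47 without WT replicate 1, which held 2 reads. An exact permutation test of Fosb alone, two-sided over 70 regroupings, gave p = 0.0286, the smallest this design allows. Fos, Junb and Atf3 gave the same p in that test, which was run on all 10 members without adjustment. Fosl2, which encodes FRA-2, was level at 6.02, 6.01, 6.06 and 6.14 in WT and 6.07, 5.89, 5.83 and 5.90 in knockout. Its groups overlapped at knockout replicate 1, and the difference of −0.14 ± 0.089 was not called (limma adjusted p = 0.251).

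Among the JUN genes, Junb, whose protein can activate or restrain AP-1 targets according to its partner, stood at 5.50, 5.84, 5.11 and 5.58 in WT. In knockout it stood at 3.89, 4.43, 4.63 and 4.29, below every WT value. The change was −1.20 ± 0.20 (limma adjusted p = 0.00159), −1.50 and −1.39 within the classes. Jun, the main dimer partner of Fos, stood at 5.98, 6.16, 5.96 and 6.18 in WT and at 6.16, 5.81, 6.41 and 5.98 in knockout. The knockout values lay on both sides of the WT range. The Jun difference of 0.019 ± 0.14 was not called (limma adjusted p = 0.924), and its sign turned to −0.13 with median centring. Jund, a broadly present JUN protein that slows growth in many cells, stood at 5.83, 6.23, 5.25 and 5.96 in WT and at 5.25, 5.64, 6.38 and 5.77 in knockout. Its groups spanned the same range, and the difference of −0.056 ± 0.26 was not called (limma adjusted p = 0.881) and was 0.18 with array weights. Jun and Jund were measured with SE of 0.14 and 0.26, so that small differences were not detectable.

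Atf3, the stress-induced ATF member, had the largest change of the 10 genes. It stood at 7.79, 7.93, 7.82 and 8.10 in WT. In knockout it stood at 5.25, 5.01, 3.72 and 3.96. The knockout mice were far apart among themselves (SD 0.76 against 0.14 in WT), with replicates 1 and 2 above replicates 3 and 4, yet all lay below WT. The change was −3.42 ± 0.32 (limma adjusted p = 0.000101), −2.65 and −3.70 within the classes. The 8 macrophage markers summed to 2052, 1673, 1454 and 1447 CPM in the same 4 knockout libraries. Red blood cell genes took 0.0738%, 0.0370%, 0.365% and 1.08% of their reads. The part of either in the spread of Atf3 was not tested.

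Egr1, the zinc-finger factor, stood at 4.93, 5.36, 5.42 and 5.50 in WT and at 4.24, 4.93, 4.71 and 4.86 in knockout. WT replicate 1 met knockout replicate 2, and the other 3 WT values lay above all knockout values. The change was −0.62 ± 0.18 (limma adjusted p = 0.0267), −1.05 and −0.52 within the classes. The call depended on single libraries. It was lost without WT replicate 2 (adjusted p = 0.0535), WT replicate 3 (0.0696), WT replicate 4 (0.0812) or knockout replicate 3 (0.0564). The exact permutation test of Egr1 alone gave an unadjusted p = 0.0571.

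Ier2, a nuclear immediate-early protein, stood at 3.91, 4.40, 4.15 and 4.14 in WT and at 3.78, 4.30, 4.43 and 4.44 in knockout. The groups overlapped, and the difference of 0.090 ± 0.18 was not called (limma adjusted p = 0.713) and was −0.053 with median centring. Ier3, a stress-responsive protein linked to cell survival, stood at 2.33, 3.25, 2.71 and 2.82 in WT and at 2.98, 3.25, 3.54 and 4.76 in knockout. Replicate 4 stood far above the other knockout mice, and replicate 2 of WT overlapped the knockout range. The difference of 0.85 ± 0.38 was not called (limma adjusted p = 0.102). It was 0.48 without knockout replicate 4, and it passed without knockout replicate 1 (1.07, adjusted p = 0.0481) and with array weights (0.98, adjusted p = 0.0345). In those settings 4075 and 4428 of all tested genes were called higher, against 3137 in the main fit.

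The balance between members within a library was compared next, since a ratio of 2 genes does not depend on the scaling of the library. Fosl2 over Fos stood at −0.44, −0.65, −0.61 and −0.65 on the log2 scale in WT and at 1.53, 1.70, 1.75 and 1.70 in knockout. Every knockout value lay above every WT value, a rise of 2.26 or 4.78-fold. The sign of such a ratio depends on the lengths of the genes and does not say which was more abundant. Egr1 over Fos rose by 1.78, from −1.34 ± 0.13 (SD, n = 4) to 0.43 ± 0.49. Fosb over Fos rose by 3.24, from −6.22 ± 0.64 to −2.97 ± 0.071, with few Fosb reads in WT. Junb over Jun stood at −0.49, −0.32, −0.85 and −0.60 in WT and at −2.26, −1.39, −1.78 and −1.69 in knockout, and fell by 1.22. Atf3 over Jun stood between 1.78 and 1.92 in WT and between −2.69 and −0.80 in knockout, and fell by 3.44. Ier3 over Ier2 rose by 0.76, from −1.37 ± 0.18 to −0.61 ± 0.63, and by 0.46 without knockout replicate 4. In these 6 ratios the groups did not overlap, with p = 0.0286 in each exact permutation test, the smallest possible, and 0.0333 after adjustment over the 7 ratios compared. The seventh, Jund over Jun, stood at −0.25 ± 0.33 in WT and −0.33 ± 0.39 in knockout, with overlapping groups (exact permutation p = 0.629, also after adjustment). Within the ribosomal RNA classes the differences were 2.10 and 2.36 for Fosl2 over Fos, 1.06 and 1.98 for Egr1 over Fos and 3.30 and 2.88 for Fosb over Fos. They were −1.62 and −1.30 for Junb over Jun, −2.76 and −3.61 for Atf3 over Jun, −0.54 and −0.21 for Jund over Jun and 0.64 and 0.61 for Ier3 over Ier2. Several ratios share a gene, so they are not independent of each other. The change of a ratio is the change of its first gene less that of its second. The ratios thus restate the single-gene changes above.

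**Figure D3:**
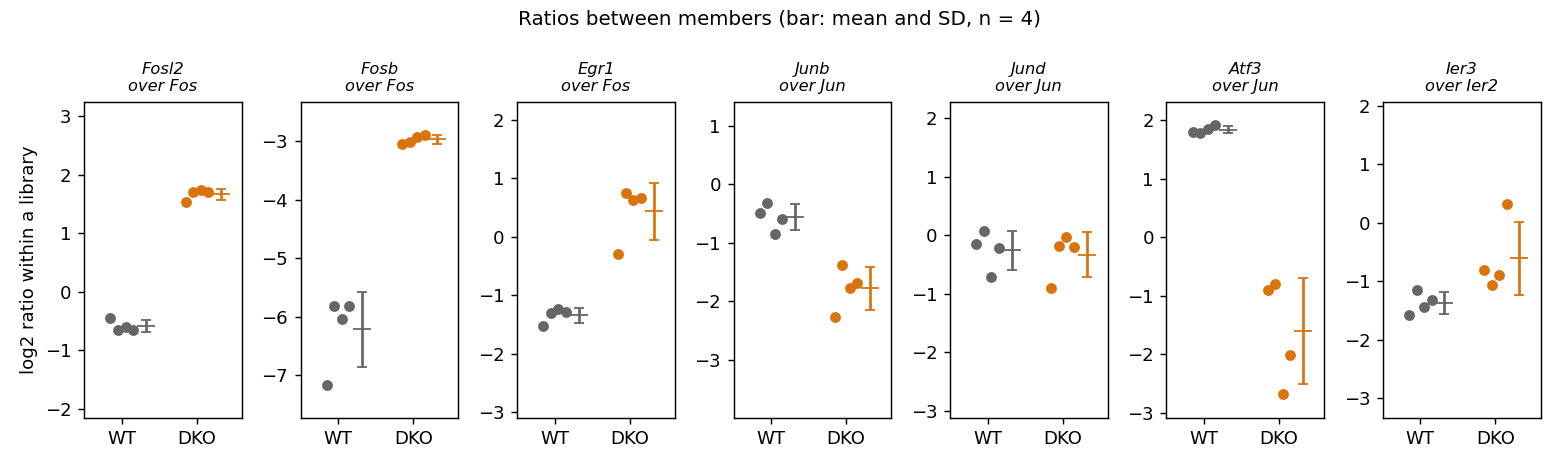
Log2 ratio of the reads of a pair of genes within each library (vertical axis, each panel spanning the same range) in 4 WT (grey) and 4 knockout (DKO, orange) libraries, with bars giving the mean and SD. In 6 panels the groups are apart, and for Jund over Jun they overlap.

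Levels can be compared between genes only per length, here as log2 CPM per kilobase of merged exons in GENCODE M21. In WT the order was Atf3 (6.80), Fos (5.41), Jund (5.08), Jun (4.40), Junb (4.30), Ier2 (3.54), Egr1 (3.14), Fosl2 (2.78), Ier3 (2.60) and Fosb (−2.21). In knockout it was Jund (5.02), Jun (4.42), Ier2 (3.64), Ier3 (3.45), Atf3 (3.38), Junb (3.11), Fos (3.02), Fosl2 (2.65), Egr1 (2.52) and Fosb (−1.36). Atf3 and Fos, at places 1 and 2 in WT, were at places 5 and 7 in knockout. Neighbours whose gap was no larger than the sum of their SDs were, in WT, Fos and Jund, Jun and Junb, Ier2 and Egr1, and Fosl2 and Ier3. In knockout they were Jund and Jun, the run from Ier2 to Fos, and Fosl2 and Egr1. Levels per length rest on annotated exons, which need not be those used in this tissue.

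Genes with the profile nearest to Fos over the 8 samples, by root mean square difference of the centred log2 values, were Lyz2 (0.139), the lysozyme of myeloid cells, Fnip2 (0.139), a folliculin partner, and Fam129b (0.143). Lyz2 stood at 12.06, 12.20, 11.90 and 12.06 in WT and at 9.99, 9.73, 9.32 and 9.63 in knockout, a change of −2.39 ± 0.19 beside −2.39 ± 0.13 for Fos. Nearest to Jun were Lpar1 (0.0797), a receptor for lysophosphatidic acid, Lrrc17 (0.0869) and Ccdc8 (0.0930), of which none was called. Lpar1 stood at 4.21 to 4.59 in WT and 4.26 to 4.81 in knockout. These genes were picked over both genotypes together. A change close to that of Fos or Jun therefore follows from the choice and is no separate result.

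Kinases and factors upstream of immediate-early genes were measured through 29 genes, of which 28 were tested. Of these 2 were higher and 6 lower, with a median change of −0.050, against 0.18 over all tested genes. Among all tested genes 22.7% were called higher and 16.1% lower, the background of this and the following list counts. Mkl1, a cofactor of serum response factor, fell by 0.88 on the log2 scale (SE 0.092, limma adjusted p = 0.000161). Rps6ka1, the kinase RSK1, fell by 1.11 (SE 0.15) and Mapk3, the kinase ERK1, fell by 0.49 (SE 0.10). Mapk3 was not called without the 3 libraries with over 0.5% epididymis reads. Srf, the serum response factor gene, was not called (0.13 ± 0.16, limma adjusted p = 0.531).

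Of 12 other leucine-zipper partners of AP-1, 1 was higher and 3 lower, with a median of −0.16. The shares over all tested genes were 22.7% higher and 16.1% lower. Fosl1, which encodes FRA-1, stood at 1.61, 2.55, 2.07 and 3.02 in WT and at −0.09, −0.58, −1.66 and −2.18 in knockout. Its groups lay far apart, with a change of −3.44 ± 0.55 (limma adjusted p = 0.00136), but it rested on 3, 51, 11 and 4 reads in the knockout libraries. Batf, a partner known from lymphocytes and other leukocytes, fell by 1.54 (SE 0.33, limma adjusted p = 0.00631). Atf2, a constitutive partner of Jun, rose by 0.40 (SE 0.10, limma adjusted p = 0.0154), which passed in 18 of 22 alternatives and not with median centring. In all, 8 partners were not called.

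Of 14 other tested immediate-early transcription factor genes and EGR cofactors, 1 was higher and 5 lower, with a median of −0.25. Beside this and the next counts stand 22.7% higher and 16.1% lower over all tested genes. Ier5, a relative of Ier2, fell by 1.22 (SE 0.14, limma adjusted p = 0.000309). Myc, a driver of growth, fell by 0.95 (SE 0.17), and the Krüppel-like factors Klf6 and Klf10 changed by −0.70 (SE 0.15) and −0.57 (SE 0.10). The other lower gene was Nab2, which restrains EGR proteins, and the higher one was its paralog Nab1. Of 19 feedback regulators 1 was higher and 4 lower, with a median of −0.13. Gadd45b, a stress protein, fell by 1.02 (SE 0.16), Mcl1, a survival protein of the BCL2 family, fell by 0.72 (SE 0.11) and Tnfaip3, the NF-κB inhibitor A20, fell by 0.52 (SE 0.13), a call lost without the 3 libraries with over 0.5% epididymis reads. Sik1, a kinase induced by cyclic AMP, rose by 0.77 (SE 0.14, limma adjusted p = 0.00298). Among 12 other immediate-early effectors 3 were higher and 4 lower, with a median of 0.15. Plk2, a polo-like kinase, fell by 2.28 (SE 0.19, limma adjusted p = 5.25e-05), Arc fell by 1.71 (SE 0.36) and Sgk1, a kinase induced by glucocorticoid and serum, fell by 1.07 (SE 0.16). Per1, a clock gene, rose by 1.24 (SE 0.29, limma adjusted p = 0.0092).

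Genes reported elsewhere as AP-1 targets numbered 19, of which 18 were tested. Of these 14 were lower and 1 higher, with a median of −1.92. Spp1, the cytokine osteopontin, stood at 8.34, 8.47, 8.50 and 8.94 in WT and at 4.06, 3.41, 4.24 and 3.52 in knockout, a change of −4.75 ± 0.21 (limma adjusted p = 1.1e-05). Mmp3, a matrix protease, fell by 3.75 (SE 0.25), Timp1, an inhibitor of such proteases, fell by 3.14 (SE 0.26) and Hmox1, the haem-degrading enzyme, fell by 3.07 (SE 0.27). The higher gene was Mmp9, another matrix protease, which rose by 2.22 (SE 0.34, limma adjusted p = 0.00118), against the direction of the rest. Many genes of this list are known in macrophages too, whose 8 markers were all lower, and the list was chosen with results of these data known. Of 10 heat shock genes, which are induced by cell stress, 5 were higher and 0 lower, with a median of 0.33. For both lists, the shares over all tested genes were 22.7% higher and 16.1% lower. Dnajb1, a co-chaperone, rose by 0.79 (SE 0.10, limma adjusted p = 0.000445) and passed in all 22 alternatives with a test. Hspa1b (1.00 ± 0.31), Hspd1 (0.62 ± 0.18) and Dnaja1 (0.44 ± 0.13) passed in 11, 15 and 17 of 22. Hspa1b has a near-identical copy, Hspa1a. How reads were assigned between them was not tested, so the value of each is uncertain.

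**Figure D4:**
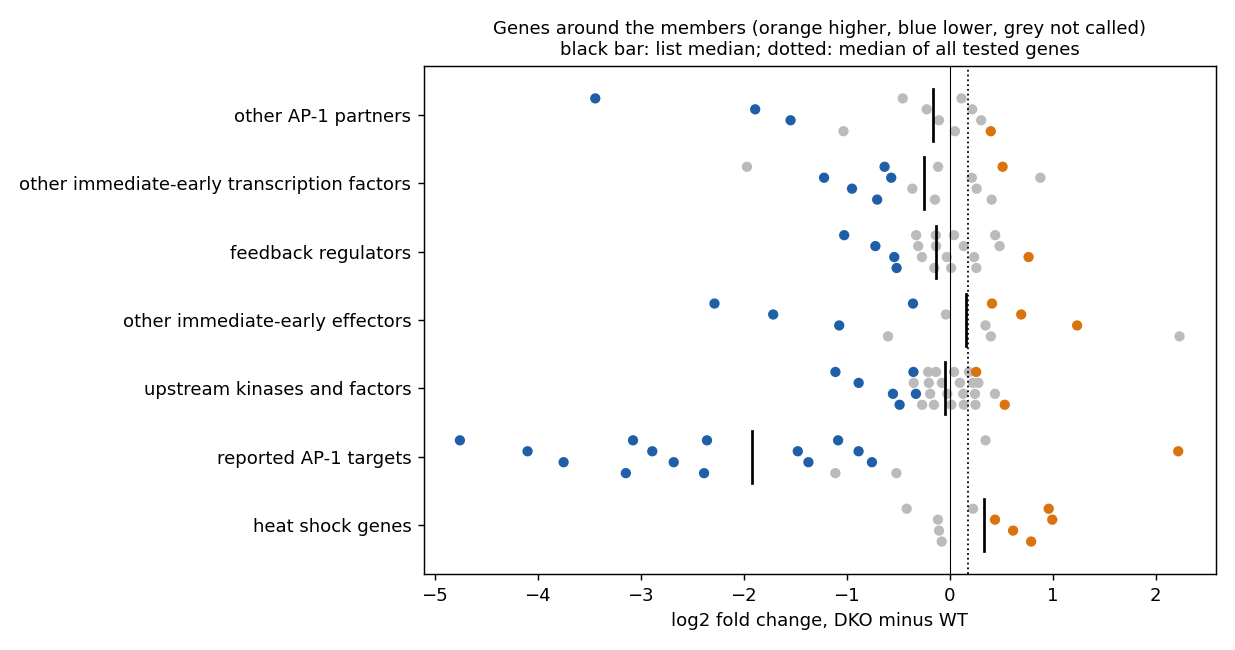
Change (log2 fold change of knockout against WT, horizontal axis) of every tested gene in 7 lists around the AP-1 factors, with called genes in blue (lower) or orange (higher), the others in grey, list medians as black bars and the median of all tested genes dotted. The list of reported AP-1 targets has the lowest median (−1.92) and the heat shock genes the highest (0.33).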

How the data were processed

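Messenger RNA was sequenced from epididymal fat of 4 WT and 4 knockout mice. Per the labels' protocols, polyA libraries came from a stranded TruSeq kit and were read as single ends. Trimmomatic, TopHat2, featureCounts, limma and the build mm9 are named in the submitters' processing notes, with their versions not given in the sources used here. From these, the authors deposited voom log2 CPM values of 16505 genes, which match log2 CPM after adding 0.5 to every read count and 1 to every library's total. Whole reads could be recovered for 100% of values within 0.01 read, and library totals ran from 3736881 to 76838584 reads.

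The 13797 genes whose mean over the 8 samples reached 0 log2 CPM were tested with limma 3.58.1 in R 4.3.3 (lmFit, eBayes with a mean-variance trend, group as the only term, two-sided, Benjamini-Hochberg adjustment at 0.05). Ratios between members and single members were compared by exact permutation over 70 regroupings. The limma fit, and no other step, was tested on simulated read counts. The members, lists and tests were chosen with earlier results of these data known. The text names all 10 members, the 4 tested genes with the smallest p of each list, and the 3 genes nearest in profile to Fos and to Jun, leaving out predicted and unnamed genes. Of these, 2 list genes are not reported here. Srf, Nab1, Nab2, Mmp9, Hspa1a, Fabp4 and the genes of the closing observations were added after their values were seen. Genome positions are of GRCm38, not of the deposited table's build. Alternatives were log2(CPM + 1), no filter and a filter at 2, centring on library medians, quantile normalization, array weights, a robust fit, a fit without the variance trend, voom weights with median-ratio size factors on the recovered reads, the replicate number as a block, ribosomal RNA class or epididymis level as a covariate, leaving out libraries over 1% epididymis reads, and leaving out each library. Leaving out those over 0.5% was added after seeing the data. Plots were drawn with matplotlib 3.10.9.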

Additional observations from a re-analysis of the deposited data

Results flagged for a closer look

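In 76 groups of 4 samples, 1 group for each gene followed individually and genotype, 2 held a sample that stood far from the other 3 relative to the group's range. Chance flags about 1 in 20 such groups. Ier5 stood at 6.06 in WT replicate 4, while the next WT value was 5.88. Hspd1 stood at 8.11 in WT replicate 3, while the next WT value was 7.79. No member of the 10 had such a sample.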

How the results depend on the processing

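Fos, Atf3 and Junb kept their direction and their call in all 22 alternatives with a test, and Egr1 in 18 of 22. Members called higher numbered 1 (Ier3) with array weights and 0 to 1 when each library was left out. Higher and lower calls over all tested genes were 3137 and 2216, but 2444 and 2825 with median centring, 2478 and 2660 with quantile normalization and 2414 and 2964 with voom weights. They were 4428 and 2609 with array weights, and 4075 and 2297 without knockout replicate 1. Uncalled genes turned sign in some settings, and the cause was not tested. Jun was −0.13 with median centring, −0.022 with quantile normalization, −0.13 with voom weights and −0.089 in the class with less ribosomal RNA. Leaving out 1 library moved it between −0.087 and 0.11. Jund was 0.18 with array weights, 0.12 without libraries over 1% epididymis reads and 0.13 without those over 0.5%, and between −0.26 and 0.11 without 1 library. Ier2 was −0.053 with median centring, −0.062 with quantile normalization, −0.025 with voom weights, −0.15 with the ribosomal RNA class as covariate, and −0.28 and −0.0074 within the classes. Jund over Jun ran from −0.23 to 0.12 without 1 library and was −0.54 in the class with more ribosomal RNA. In that class, Fosl2 over Fos was 2.10, Egr1 over Fos 1.06, Junb over Jun −1.62 and Atf3 over Jun −2.76, and in the other class Fosl2 over Fos was 2.36. For samples with the same replicate number, deviations from the group means correlated at 0.36, 0.79, 0.24 and −0.36. Of the 8 samples only WT replicate 2 and knockout replicate 2 correlated best with their own number. These were the libraries with over 1% epididymis reads, so the correlations cannot decide whether the numbers pair the samples. With a replicate block, 4 members were lower and 0 higher, and 2136 and 3232 genes were called lower and higher. An exact sign-flip permutation test of the ratios by number gave p = 0.125, the smallest it allows, for all but Jund over Jun (0.75). Rare genes were limited by depth, as Fosb rested on 2 reads in WT replicate 1.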

Other observations

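These genes were picked after their values were seen. Ptgs2, the inducible cyclooxygenase, stood at 8.36 log2 CPM in knockout replicate 4, against 0.50 to 0.58 in the other knockout mice and −0.09 to 0.89 in WT. That library also held the highest Ier3 level (4.76), the highest summed level of 5 smooth muscle markers (3018 CPM, against 352 to 447 in the other knockout libraries) and the most red blood cell reads. The part of these in its Ptgs2 and Ier3 levels was not tested.

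Egr2, a relative of Egr1, stood at 5.85 to 6.58 in WT and at 3.57, 6.64, 2.08 and 4.60 in knockout replicates 1 to 4, so the knockout mice spanned more than the whole WT range, and the difference of −1.97 ± 0.79 was not called (limma adjusted p = 0.0769). Among the genes reported as AP-1 targets, Ccl2, a chemokine that draws monocytes, stood at 4.85, 3.92, 2.26 and 1.60 in knockout replicates 1 to 4, and Cd44, an adhesion receptor, at 6.56, 6.03, 4.96 and 4.81. In each of them, as in Atf3, knockout replicates 1 and 2 were above replicates 3 and 4.

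Junb and Jund ranked the 4 WT libraries alike, from replicate 2 down to replicates 4, 1 and 3. In both, knockout replicate 3 was the highest and knockout replicate 1 the lowest of its group, while Junb separated the genotypes and Jund did not.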
